A study of Mus musculus with 20 samples.

Results

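The genes described here mark the mast cells and eosinophils of epididymal fat. The 7 mast cell genes were Cpa3, Cma1, Mcpt4, Tpsb2, Kit, Ms4a2 and Hdc, and the 3 eosinophil genes were Siglecf, Ccr3 and Il5ra. They are 10 of the 19505 genes measured, and were chosen by name from what is known of the cells, with earlier results of these data known. Each had a single probe set, so all 10 members entered every test. Whole fat pads of 20 male C57BL/6 mice were measured with expression arrays, 1 array per mouse. Every mouse carried TNF-α flox/flox alleles. The 10 cre mice were LyzMcre+/-, and the 10 wt mice were their LyzMcre-/- littermates. LyzM drives Cre in macrophages, neutrophils and other myeloid cells, and whether mast cells or eosinophils lost Tnf was not measured. Mice were fed chow up to 10 weeks of age and for the next 18 weeks a purified diet in which fat supplied 40% of calories, so that they were 28 weeks old at sampling. Each of the 2 batches named in the labels held 5 wt and 5 cre mice. Values are log2 signals, so 1 unit is a doubling of signal.

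Mast cells mature inside tissues under the growth factor KIT ligand and store proteases, histamine and heparin in granules. IgE bound to the high-affinity Fc receptor on their surface triggers release of these granules. Eosinophils leave the bone marrow under interleukin 5, enter tissues along eotaxin gradients through CCR3, and are a source of interleukin 4 in lean fat. Both cell types rely on GATA transcription factors, and MITF is a further regulator of mast cell genes. Array data of whole tissue cannot tell fewer cells of a type from less RNA per cell.

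The start regions of Cpa3, Mcpt4 and Ms4a2 are shown because each holds AGATAA or TGATAA within 250 bases before the gene's start. That of Cma1 is shown because it holds neither, although its signal followed those of Cpa3 and Mcpt4 in the 11 mice with the highest Cpa3 signal. In the other 9 mice Pearson's r of Cma1 was 0.08 with Cpa3 and −0.06 with Mcpt4. The sequences are RefSeq's, build GRCm38.p6, written 5′ to 3′ along the gene from 250 bases before to 50 after its start. Capitals mark AGATAA or TGATAA on either strand, so that TTATCT is AGATAA on the opposite strand. Other GATA forms were not searched, and Cma1 holds one of them, AGATAG, on the opposite strand.
Cpa3: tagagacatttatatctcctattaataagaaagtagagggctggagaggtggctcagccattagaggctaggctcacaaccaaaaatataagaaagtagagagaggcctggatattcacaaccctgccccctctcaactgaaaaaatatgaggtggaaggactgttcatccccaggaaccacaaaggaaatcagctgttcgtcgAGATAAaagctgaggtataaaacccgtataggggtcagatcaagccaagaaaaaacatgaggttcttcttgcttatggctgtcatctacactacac
Mcpt4: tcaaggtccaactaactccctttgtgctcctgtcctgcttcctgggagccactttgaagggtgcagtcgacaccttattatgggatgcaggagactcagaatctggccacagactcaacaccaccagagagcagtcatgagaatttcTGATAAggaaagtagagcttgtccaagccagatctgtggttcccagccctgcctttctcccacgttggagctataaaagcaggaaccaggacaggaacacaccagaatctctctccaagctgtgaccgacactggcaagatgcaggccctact
Ms4a2: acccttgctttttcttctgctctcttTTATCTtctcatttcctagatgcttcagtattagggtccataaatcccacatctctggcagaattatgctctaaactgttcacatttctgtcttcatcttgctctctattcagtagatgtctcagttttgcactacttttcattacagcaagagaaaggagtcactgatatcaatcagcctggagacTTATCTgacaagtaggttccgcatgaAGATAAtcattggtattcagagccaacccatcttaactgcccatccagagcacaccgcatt
Cma1: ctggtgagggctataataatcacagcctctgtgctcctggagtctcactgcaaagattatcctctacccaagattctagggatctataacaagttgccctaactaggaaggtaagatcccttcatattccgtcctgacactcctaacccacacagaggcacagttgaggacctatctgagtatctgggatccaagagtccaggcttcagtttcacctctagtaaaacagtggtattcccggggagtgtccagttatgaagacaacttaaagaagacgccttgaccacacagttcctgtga
These regions lie at chr3:20242132-20242431, chr14:56062261-56062560, chr19:11623670-11623969 and chr14:55944626-55944925 in the same order, all on the minus strand. In Cpa3 the motif begins 46 bases before the start and in Mcpt4 103 bases before it. Ms4a2 holds it 3 times, at 224, 37 and 11 bases before the start. Among the eosinophil genes it stands 30 bases before the start of Ccr3 and 74 before that of Il5ra, and 11 after that of Siglecf. Start regions of Kit, Hdc and Cma1 hold no such letters in this window. In all, 6 of the 9 members with an entry hold the motif, against 18.6% of the 32851 start regions of this length. A MITF E-box, searched as CATGTG or CACGTG on both strands, was found in 1 member, Siglecf, and in 20.4% of all start regions. A match describes the letters and is not evidence of binding. Tpsb2 had no entry.

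The arrays were alike in level, with medians between 6.49 and 6.58 and correlations between 0.93 and 0.989. Tnf, the gene targeted by Cre, was 6.66 ± 0.69 (SD, n = 10) in wt and 4.67 ± 0.43 in cre mice, and its groups did not overlap. Adipocyte marker means of 13.85 to 16.31 were seen, a check of the tissue label. In 4 mice the mean of a list for another tissue exceeded that of all other mice of the genotype by over 1 log2 unit: wt mouse 6 for seminal vesicle and prostate, wt mouse 4 for liver and pancreas, cre mouse 3 for seminal vesicle and cre mouse 2 for bladder. In wt mouse 6 the seminal vesicle mean was 16.84, and the next wt mouse had 5.82. The rule could not set apart mice that shared a high mean. Liver means were 12.37, 12.16 and 11.59 in cre mice 4, 10 and 1 and 11.46 in wt mouse 9, against 6.16 in wt mouse 6, the lowest. Leaving out the 4 mice set apart kept 8 wt and 8 cre mice, which still differed in the liver list, and 0 members passed with or without those 4.

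The protease genes Cpa3, Tpsb2 and Mcpt4 varied between single mice more than nearly all other transcripts, and no genotype difference passed. Cpa3 encodes carboxypeptidase A3, which is stored in mast cell granules with heparin. Its log2 signal was 6.05 at the lowest, 9.90 at the median and 14.86 at the highest in wt mice, and 7.45, 10.74 and 12.85 in cre mice. The cre values thus lay inside the wt range. From the lowest to the highest mouse the signal of Cpa3 rose 446-fold. Its SD within genotype and batch was 2.83, rank 16 of 22206 probe sets, and the median over all probe sets was 0.38. Tpsb2, the β-tryptase mast cell protease 6, had 5.56, 7.96 and 12.55 in wt and 6.07, 8.13 and 10.83 in cre mice, a 128-fold range that ranked 43 by SD. Mcpt4, the main chymase of connective tissue mast cells in mice, had 5.42, 7.84 and 12.03 in wt and 5.62, 8.28 and 10.38 in cre mice, a 97.4-fold range that ranked 47. The lowest values of Tpsb2 and Mcpt4, both in wt mouse 10, lie under 5.59, the 95th percentile of a set of dim probe sets described with the eosinophil genes, so these folds are ratios of signal and not folds of transcript. In all 3 the highest and the lowest value belonged to wt mice, 5 and 10 respectively. Cma1, a further chymase gene on chromosome 14, as Mcpt4 is, moved less: 6.01, 7.26 and 9.16 in wt and 6.35, 6.76 and 7.67 in cre mice. Its 3 highest values, 9.16, 8.60 and 8.41, were all in wt mice (5, 9 and 6).

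**Figure D1:**
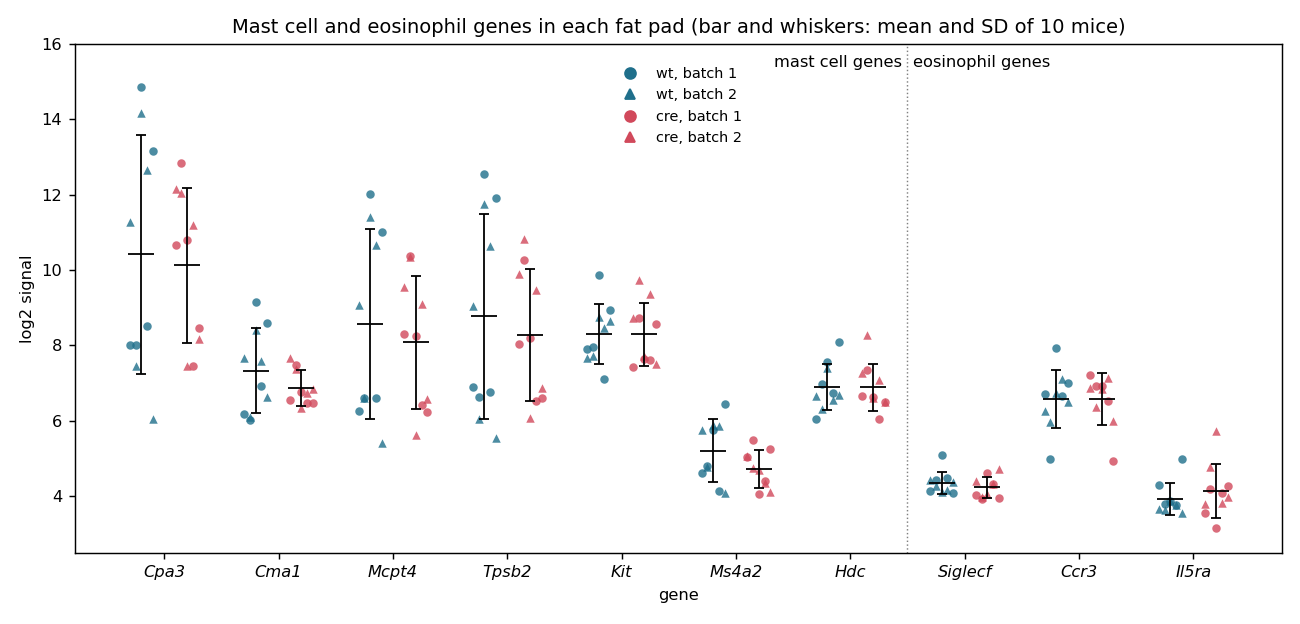
Log2 signal of each of the 10 genes in every mouse (vertical axis), by genotype (n = 10 mice each, batches by symbol), with the mean and SD of each genotype as bar and whiskers. Cpa3, Mcpt4 and Tpsb2 spread over 6.61 to 8.80 log2 units, and wt and cre mice overlap for every gene.

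Genotype means of these proteases lay within the spread of single mice. Cpa3 was 10.42 ± 3.16 (SD, n = 10) in wt and 10.13 ± 2.05 in cre mice, a log2 difference, cre minus wt, of −0.29 (SE 1.08, 95% interval −2.54 to 1.95, limma adjusted p = 0.971). Within batches that difference was −0.47 and −0.12. Tpsb2 differed by −0.50 (SE 0.93) and Mcpt4 by −0.49 (SE 0.89), and Cma1 by −0.46 (SE 0.36, interval −1.20 to 0.29). The intervals of Cpa3, Tpsb2 and Mcpt4 all include changes of 2 log2 units downward. No member passed Benjamini-Hochberg adjustment in limma, and none had an unadjusted p under 0.05. Over all probe sets 1 passed (0.0045%), and 1397 (6.29%) had an unadjusted p under 0.05, 3.05% lower and 3.24% higher in cre mice. For 0 of 10 members were the genotypes apart without overlap, as for 0.00901% of all probe sets. Exact two-sided permutation of genotype within batches gave p = 0.814 for Cpa3, 0.265 for Cma1, 0.626 for Mcpt4 and 0.633 for Tpsb2. All 7 mast cell genes had a lower mean in cre than in wt mice, but 5 of them were higher with array weights (Cpa3 0.45, Mcpt4 0.12, Tpsb2 0.13, Kit 0.15 and Hdc 0.10), the same 5 with the macrophage mean as a covariate, and Kit and Hdc (0.020 and 0.000788) after a further quantile normalization. Tpsb2 was −1.02 in batch 1 and 0.02 in batch 2. The median difference of the 7 was −0.46, where 10943 of 22206 probe sets were lower and the median was 0.00. These 7 share mice and cells and are not separate evidence of a direction. Without wt mice 5 and 6 the differences turned to 0.73 for Cpa3, 0.30 for Mcpt4 and 0.34 for Tpsb2, and without cre mice 7 and 9 that of Cpa3 was 0.33.

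**Figure D2:**
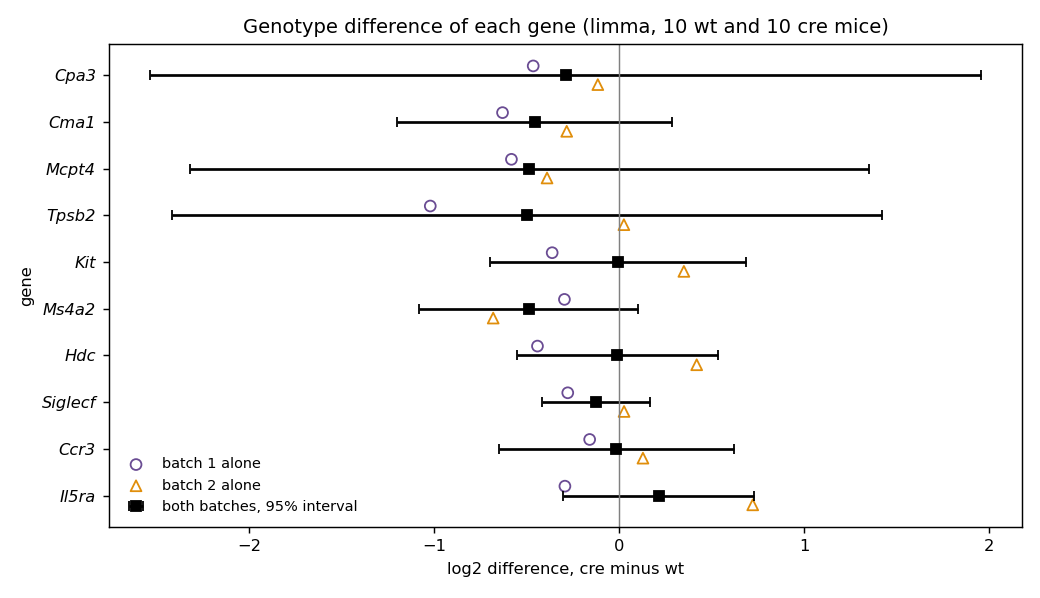
Log2 difference, cre minus wt, of each gene (horizontal axis) with its 95% interval over 20 mice, and the differences within batch 1 and batch 2 (5 mice of each genotype in both). Every interval includes 0, and the widest is that of Cpa3, −2.54 to 1.95.

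The receptor and enzyme genes of mast cells spread less than the proteases and did not differ by genotype either. Kit, the receptor of KIT ligand, which melanocytes and progenitor cells carry too, was 8.31 ± 0.79 (SD, n = 10) in wt and 8.30 ± 0.83 in cre mice. Its values were 7.11, 8.22 and 9.87 in wt and 7.43, 8.14 and 9.73 in cre mice (lowest, median, highest). The difference of −0.01 had a 95% interval of −0.70 to 0.69, and was −0.36 in batch 1 and 0.35 in batch 2. Hdc, the histidine decarboxylase that makes histamine, was 6.06, 6.71 and 8.10 in wt and 6.06, 6.65 and 8.27 in cre mice. Its difference was −0.01 (SE 0.26), with −0.44 in batch 1 and 0.42 in batch 2. The interaction of genotype and batch did not pass for Hdc (unadjusted limma p = 0.101) or Kit (0.297). Ms4a2 encodes the β chain of the IgE receptor. It was 4.08, 5.27 and 6.44 in wt and 4.06, 4.72 and 5.50 in cre mice, with 8 of 10 cre mice under the mean of wt. The difference was −0.49 (SE 0.29, interval −1.08 to 0.10, limma adjusted p = 0.818, exact permutation p = 0.134). Without wt mouse 7 its unadjusted p was 0.0362, and without wt mouse 10 it was 0.0360. Batch means of the 10 members differed by −0.07 to 0.25, and 0 of 10 passed for batch, with 0% of all probe sets passing adjustment and 0.572% with an unadjusted p under 0.05. A threshold of 0.05 would on average give a larger share than 0.572% even if no probe set differed by batch. Whether the authors took batch out of the values before deposit is unknown here and was not tested.

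The widest gaps of Cpa3, Mcpt4 and Tpsb2 split the mice into the same sets. For Cpa3, no mouse lay between 8.52 and 10.68, with 9 mice below this gap and 11 above it. The 11 were 5 wt and 6 cre mice. Mcpt4 had its widest gap between 6.61 and 8.25 and Tpsb2 between 6.89 and 8.04, and the 9 mice below were in each case wt 1, 3, 4, 7 and 10 and cre 6, 7, 9 and 10. Both genotypes and both batches were on both sides. Without the 4 mice set apart by a list for another tissue the gaps of Cpa3 and Mcpt4 kept 8 mice on either side. The widest gap of Tpsb2 then lay higher, with 4 mice above and 12 below. In log2 units the widest gaps of Kit, Ms4a2 and Hdc were smaller (0.50, 0.54 and 0.55), but so were their ranges from lowest to highest mouse (2.76, 2.38 and 2.21). Cma1 had a gap of 0.74 in a range of 3.14. The gaps of Cpa3, Mcpt4 and Tpsb2 were 2.16, 1.64 and 1.15, in ranges of 6.61 to 8.80. Any gene has a widest gap, and none was tested. A gap that is wide for its range is thus not shown to be particular to Cpa3, Mcpt4 and Tpsb2.

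Within the 11 mice above the gap the proteases rose and fell together. Pearson's r was 0.982 for Mcpt4 with Tpsb2, 0.967 for Cpa3 with Mcpt4 and 0.938 for Cpa3 with Tpsb2, each with a permutation p of 0.00016 after adjustment over 48 relations. Spearman's rho was 0.955, 0.964 and 0.918 (adjusted permutation p = 0.00072, 0.00048 and 0.00256). Without the 2 mice farthest from the median r was 0.967, 0.959 and 0.917, and in the 6 of these mice from batch 2 it was 0.975, 0.933 and 0.912. Batch 1 held 5, too few for a value. Cma1 followed Cpa3 with r = 0.914 (adjusted permutation p = 0.00144; 0.825 without 2 mice), Tpsb2 with 0.90 and Mcpt4 with 0.89, and in batch 2 these were 0.828, 0.615 and 0.687. Kit passed with Tpsb2 (r = 0.768, adjusted permutation p = 0.0404) but fell to 0.579 without the 2 mice and was 0.371 in batch 2, and Cpa3 with Hdc did not pass (0.502, adjusted permutation p = 0.267). In all, 7 of 24 relations in these 11 mice passed by r and 10 by rho, and all 24 had r above 0. These 24 include pairs with the eosinophil genes, and Tpsb2 with Il5ra passed by rho (0.791, adjusted permutation p = 0.0322). How many pairs of other genes would pass in these mice was not counted. With values centred and permuted within genotype 9 of the 24 relations passed by r, 6 by rho, and 22 were above 0. Mcpt4 with Tpsb2 then had r = 0.972, Cpa3 with Mcpt4 0.947 and Cpa3 with Tpsb2 0.901 (adjusted exact permutation p = 0.00222, 0.00222 and 0.00792), and Tpsb2 also passed with Kit (0.903) and Hdc (0.844). Below the gap, in 9 mice, 12 of 24 were above 0 and 1 passed, Cpa3 with Tpsb2 (r = 0.886, adjusted permutation p = 0.0216), which was 0.644 without wt mice 4 and 10.

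**Figure D3:**
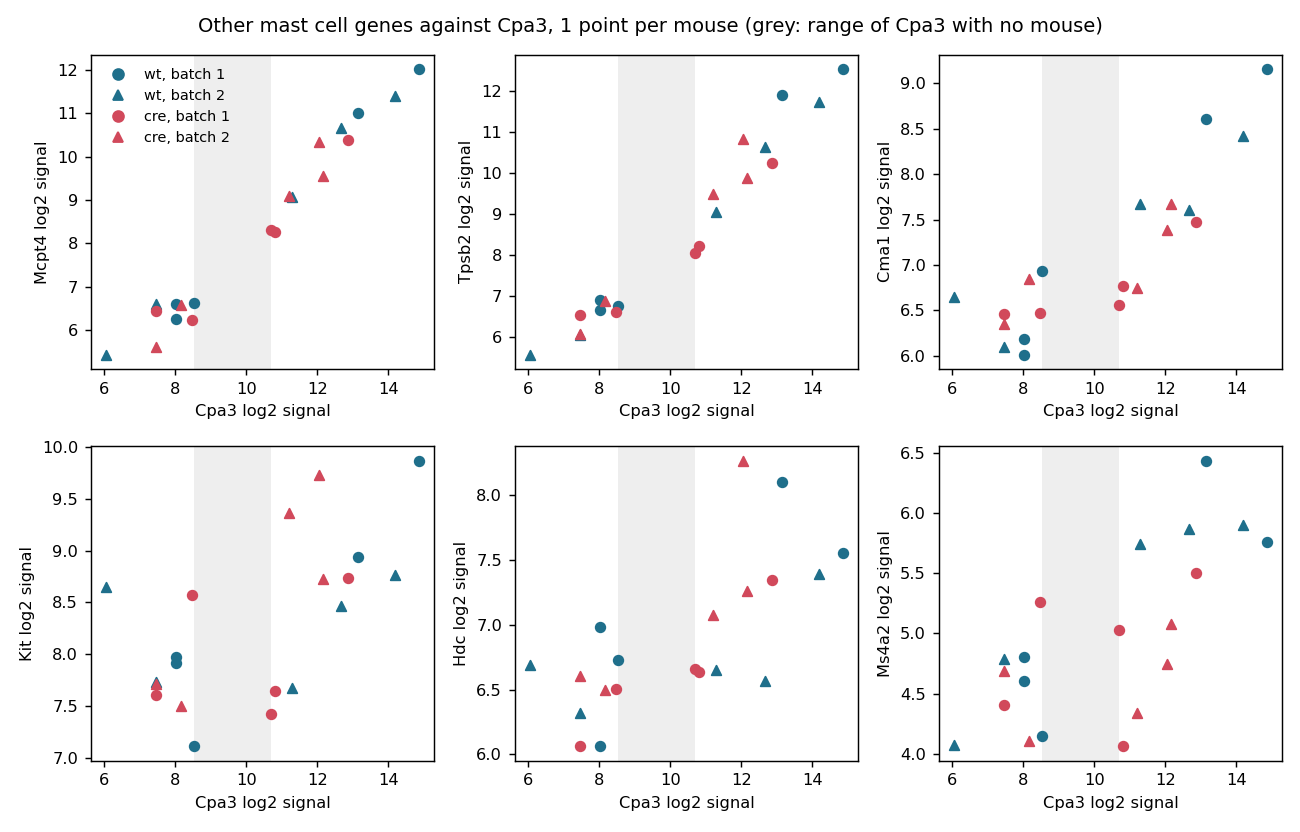
Log2 signals of other members (vertical axes) against that of Cpa3 (horizontal axis), 1 point per mouse (20 mice, wt and cre in different colours). Mcpt4 and Tpsb2 follow Cpa3 above its gap between 8.52 and 10.68, with r of 0.967 and 0.938 in those 11 mice.

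Relations among Cma1, Kit, Ms4a2 and Hdc were computed over all 20 mice, centred in each combination of genotype and batch, and 5 of these 6 pairs passed by r. How many pairs of other genes would pass was not counted, so this is not shown to be particular to mast cell genes. Kit and Hdc had r = 0.728 (adjusted permutation p = 0.0277 over 21 relations, 0.666 without 2 mice), with 0.650 in batch 1 and 0.824 in batch 2. Cma1 had r = 0.727 with Hdc and 0.727 with Ms4a2 (adjusted permutation p = 0.0227 and 0.0395), and these were 0.679 and 0.662 without 2 mice. Within batches they were 0.797 and 0.629 with Hdc, and 0.708 and 0.765 with Ms4a2. The relation of Ms4a2 with Hdc (r = 0.614) was 0.800 in batch 1 and 0.357 in batch 2. That of Cma1 with Kit (r = 0.618) passed by r but not by rho (0.538, adjusted permutation p = 0.0886). Kit with Ms4a2 did not pass (r = 0.510, adjusted permutation p = 0.078), with 0.803 in batch 1 and 0.113 in batch 2.

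The likeness of other genes known from mast cells was computed as well. Over 20 mice r with the mean of the 7 mast cell genes was 0.97 for Mrgprb1 and 0.83 for Mrgprb2, both Mas-related receptors (Mrgprb2 is the mast cell receptor for basic secretagogues), and 0.96 for the tryptase Tpsab1. It was 0.87 for Fcer1a, the IgE-binding chain of the receptor, 0.80 for Mitf, 0.80 for the prostaglandin D synthase Hpgds, 0.78 for the serotonin-making enzyme Tph1 and 0.74 for the vesicular monoamine transporter Slc18a2. Tpsab1 spanned 4.34 to 10.18 and, like Cpa3, was highest in wt mouse 5. These values span the split of the mice. In the 11 mice above the gap r was 0.93 for Tpsab1 and 0.89 for Mrgprb1, but 0.69 for Fcer1a, 0.66 for Hpgds, 0.60 for Mitf, 0.60 for Mrgprb2, 0.54 for Tph1 and 0.34 for Slc18a2. Of 19 such genes 16 were above 0 over 20 mice, with a median r of 0.676. Likeness of this size was not particular to mast cell genes: 14 of 16 macrophage markers were above 0 with a median of 0.672, and 6 of 7 T cell and innate lymphoid markers with a median of 0.644. Over 18352 genes the median was −0.03, the 95th percentile 0.609 and 46.9% were above 0. These are descriptions over the same 20 arrays. Of the listed mast cell genes, Ltc4s, the leukotriene C4 synthase, went the other way (r = −0.81), as did Mcpt2 (−0.33), and Ctsg had −0.001. Outside all lists the genes most like the mast cell mean were Cpe, Reps2, Vps4b, Serpinb1a, Ints6l, Tmx1, Prkacb and Atp7a, with r from 0.915 down to 0.879. In the 11 mice their r ranged from 0.857 (Serpinb1a) down to 0.223 (Tmx1).

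Of these 19 other mast cell genes, 14 were lower and 5 higher in cre mice, with a median of −0.13, and none had an unadjusted p under 0.05. Gata2, a transcription factor of mast cells, differed by −0.81 (SE 0.61). Its highest value, 13.39, was in wt mouse 6, and the next highest mouse had 7.94. The part of the seminal vesicle genes of that mouse in this difference was not tested. The adaptor gene Lat2 differed by −0.36 (SE 0.32) and the serotonin transporter gene Slc6a4 by −0.28 (SE 0.26). Of 4 basophil genes 3 were higher and 1 lower, and none had an unadjusted p under 0.05. Mcpt8, the basophil protease, differed by 0.32 (SE 0.16), Il3ra by −0.31 (SE 0.19) and Prss34 by 0.10.

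The signalling partners of the IgE receptor held 1 gene of 9 with an unadjusted p under 0.05. Fcer1g, the γ chain that this receptor shares with Fc receptors of macrophages, was 14.29 ± 1.07 (SD, n = 10) in wt and 13.05 ± 1.60 in cre mice. The difference of −1.25 (SE 0.56) failed adjustment (limma adjusted p = 0.781), with 9 of 10 cre mice under the mean of wt, and was −1.89 in batch 1 and −0.60 in batch 2. Macrophages carry this chain too. Of 16 of their markers, 15 were lower and 2 had an unadjusted p under 0.05, with a median of −0.33. Their part in Fcer1g was not tested. Plcg1, a phospholipase downstream of the receptor, differed by 0.38 (SE 0.20).

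Signals of Cma1, Hdc and Kit were lower in mice with a higher adipocyte signal. The share of all genes with such a relation was not counted, so it is not shown to be particular to mast cell genes. Over 20 mice the mean of 13 adipocyte markers was inversely related to Cma1 (r = −0.802, adjusted permutation p = 0.00021 over 21 relations), with −0.875 in batch 1, −0.765 in batch 2 and −0.747 without wt mice 5 and 6. With Hdc r was −0.679 and with Kit −0.636 (adjusted permutation p = 0.00651 for both). These were −0.763 and −0.598 without 2 mice, and −0.667 and −0.701 for Hdc and −0.798 and −0.488 for Kit within batches. Ms4a2 did not pass by r (−0.564, adjusted permutation p = 0.115) but did by rho (−0.714, adjusted permutation p = 0.00769). Cpa3, Mcpt4 and Tpsb2 were tested only within either side of the gap and not over all 20 mice. There no such relation passed with genotype taken out. In the 11 mice above the gap r with the adipocyte mean was −0.830 for Cpa3, −0.744 for Mcpt4 and −0.701 for Tpsb2 (adjusted permutation p = 0.0228, 0.0228 and 0.0653 over 18 relations). With values centred and permuted within genotype these were −0.770, −0.644 and −0.583 and none passed (adjusted exact permutation p = 0.299, 0.299 and 0.483). Below the gap, in 9 mice, they were 0.249, 0.240 and 0.337 and did not pass. The adipocyte mean was 15.95 to 16.31 in the 9 mice below the gap of Cpa3 and 13.85 to 15.94 in the 11 above it, ranges that touch but do not overlap. Tests within a side leave out this difference between the sides. They cannot decide whether Cpa3, Mcpt4 and Tpsb2 follow the adipocyte mean over 20 mice. Over 20 mice the 13 adipocyte markers had a median r of −0.760 with the mean of the mast cell genes, and 0 were above 0. That mean includes Cma1, Hdc and Kit. The lowest adipocyte mean, 13.85, was that of wt mouse 6, whose pad had the seminal vesicle genes.

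Macrophage markers were related to Cma1 (r = 0.654) and Hdc (0.620), with adjusted permutation p = 0.00651 and 0.0152. Within batches these were 0.712 and 0.519 for Cma1 and 0.738 and 0.429 for Hdc. In the 11 mice above the gap the relation of macrophage markers to Cpa3, Mcpt4 and Tpsb2 did not pass (r from 0.32 to 0.36, adjusted permutation p = 0.621) and turned negative without wt mice 5 and 9. The macrophage mean was 10.47 to 12.22 in the 9 mice below the gap and 12.03 to 13.38 in the 11 above. Fibroblast means were 11.94 to 13.30 and 12.68 to 14.04, and T cell and innate lymphoid means 6.82 to 7.54 and 7.13 to 9.08. These ranges overlap. The part of macrophage, lymphoid or adipocyte content in the mast cell signals was not tested.

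**Figure D4:**
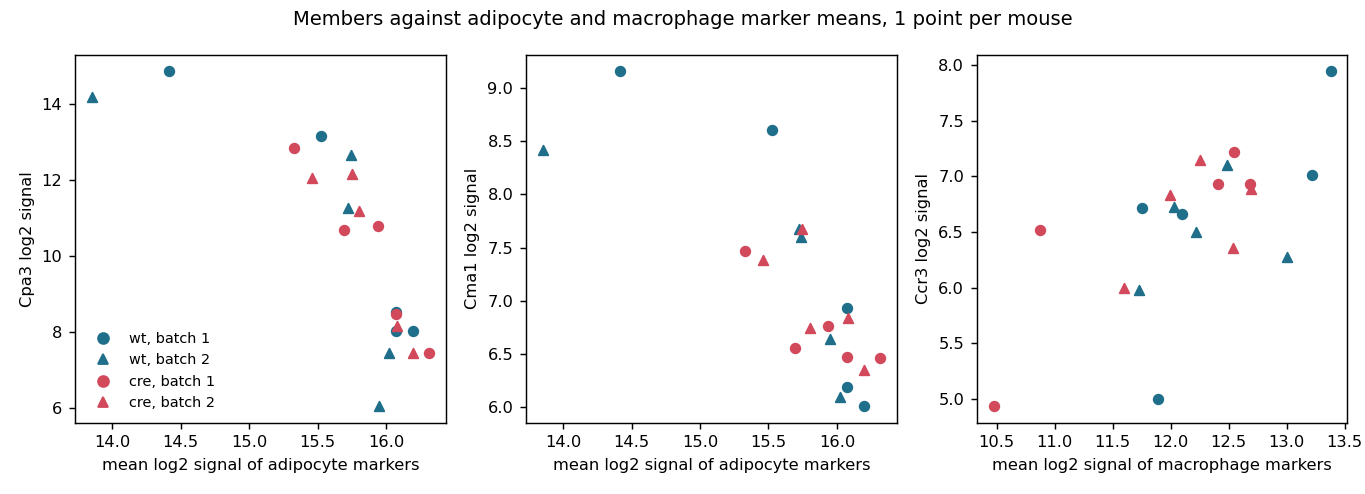
Signals of member genes (vertical axes, log2) against means of the adipocyte and macrophage marker lists (horizontal axes, log2), 1 point per mouse. Cma1 falls as the adipocyte mean rises (r = −0.802 over 20 mice), and Ccr3 rises with the macrophage mean (r = 0.693).

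The eosinophil genes neither differed by genotype nor moved together as the mast cell genes did. Siglecf encodes the sialic acid-binding lectin that marks mouse eosinophils. Its log2 signal was 4.09, 4.33 and 5.08 in wt and 3.92, 4.19 and 4.72 in cre mice (lowest, median, highest). Its SD within genotype and batch of 0.29 was below the median of all probe sets. Il5ra, the receptor chain for interleukin 5, had 3.55, 3.78 and 4.99 in wt and 3.15, 4.04 and 5.73 in cre mice. Ccr3, the eotaxin receptor, was the most variable of the eosinophil genes, with 4.996, 6.69 and 7.94 in wt and 4.93, 6.86 and 7.22 in cre mice. Probe sets differ in brightness, so the levels of these genes are not compared with each other. As a gauge of dim signal, 1091 probe sets of olfactory receptors had a median of 4.30 and a 95th percentile of 5.59. The means of Siglecf and Il5ra fell in that range, as did that of Ms4a2, so a low or absent signal of these genes cannot be told apart. For Ms4a2 the SD of 0.71 was above the 95th percentile of the olfactory receptors, 0.57, while those of Il5ra (0.55) and Siglecf were not.

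Siglecf was 4.36 ± 0.29 (SD, n = 10) in wt and 4.23 ± 0.29 in cre mice, a difference of −0.13 (SE 0.14, 95% interval −0.42 to 0.17, exact permutation p = 0.362). Ccr3 was 6.59 ± 0.77 and 6.58 ± 0.69, a difference of −0.02 (SE 0.31, interval −0.65 to 0.62). Within batches it was −0.16 and 0.13. Il5ra was 3.92 ± 0.43 in wt and 4.13 ± 0.71 in cre mice, a difference of 0.21 (SE 0.25, interval −0.30 to 0.73), and 6 of 10 cre mice lay above the wt mean. By batch Il5ra was 4.14 ± 0.52 (SD, n = 5) in wt and 3.85 ± 0.48 in cre mice in batch 1, and 3.70 ± 0.13 and 4.42 ± 0.83 in batch 2, with differences of −0.29 and 0.72. The interaction of genotype and batch had an unadjusted limma p of 0.0382 for Il5ra and failed adjustment (0.663), where 1645 probe sets (7.41%) had an unadjusted p under 0.05. It was the only member of 10 to do so. The difference of Il5ra fell to 0.03 without cre mouse 6, its highest value.

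Among the eosinophil genes Siglecf and Ccr3 (r = 0.197) and Ccr3 and Il5ra (r = −0.054) did not pass (adjusted permutation p = 0.740 and 0.822). Siglecf and Il5ra were inversely related (r = −0.646, adjusted permutation p = 0.0415, −0.652 without 2 mice), with −0.663 and −0.688 within batches, both at dim levels. Ccr3 rose with the macrophage mean (r = 0.693, adjusted permutation p = 0.00651), which was 0.525 without cre mouse 9 and wt mouse 5, 0.769 in batch 1 and 0.361 in batch 2. By rho Ccr3 also passed with the fibroblast mean (0.565, adjusted permutation p = 0.0478) and, inversely, the adipocyte mean (−0.564, adjusted permutation p = 0.0379). By r Ccr3 passed with neither (0.546 and −0.479, adjusted permutation p = 0.135 and 0.125). Its relation to Cma1 did not pass (r = 0.571, adjusted permutation p = 0.0547). The genes most like the mean of the 3 eosinophil genes over 20 mice were Rhob, Mad2l1, Sh3bp1, Cd300a, Clta, Arpc4, Arhgap9 and Sirt2, with r from 0.835 down to 0.782.

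Of 11 other eosinophil genes, 4 were higher and 7 lower in cre mice, and 1 had an unadjusted p under 0.05. Gata1, a transcription factor that eosinophils and mast cells need, was 5.74 ± 0.30 (SD, n = 10) in wt and 5.35 ± 0.38 in cre mice. The difference of −0.38 (SE 0.16) failed adjustment (limma adjusted p = 0.770), with 9 of 10 cre mice under the mean of wt and −0.56 and −0.20 within batches. The eosinophil ribonuclease Ear10 differed by −0.47 (SE 0.23) and the eosinophil peroxidase Epx by 0.20 (SE 0.12). Epx, at 3.20 to 4.14, lay below the olfactory receptor median in every mouse. Over 20 mice r with the mean of the mast cell genes was above 0 for 4 of the 11 genes, with a median of −0.147. It ran from −0.67 for Ear10, whose r in the 11 mice above the gap was 0.23, to 0.57 for the lipoxygenase Alox15, with 0.77 in the 11 mice. Gata1 had 0.46 and 0.68.

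Growth factors and attractants of both cell types held 17 measured genes, 6 higher and 11 lower in cre mice, with a median of −0.07 and none with an unadjusted p under 0.05. Ccl11, the eotaxin that binds CCR3, differed by −0.36 (SE 0.19, limma adjusted p = 0.801), and 9 of 10 cre mice were under the mean of wt. Il5 differed by 0.24 (SE 0.14) with 10 of 10 cre mice above the wt mean. Its signal of 4.54 to 5.57 lay in every mouse under 5.59, the 95th percentile of the olfactory receptors. Such counts of mice were not made over all probe sets. The chemokine Ccl5 differed by −0.96 (SE 0.64). Kitl, the ligand of KIT, followed the mast cell mean over 20 mice (r = 0.78) and less closely in the 11 mice (0.40). The alarmin Il33 had r = 0.63 and the eotaxin Ccl24 r = −0.75. Of 9 receptors for mast cell mediators, 3 were higher and 6 lower, and none had an unadjusted p under 0.05. The leukotriene B4 receptor Ltb4r1 differed by −0.31, the prostaglandin D2 receptor Ptgdr2 by −0.16 and the histamine receptor Hrh1 by 0.13.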

How the data were processed

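RNA of 20 epididymal fat pads was labelled with GeneChip WT PLUS reagents, per the labels' protocols. For 22206 probe sets the authors deposited log2 signals, and the submitters' processing notes name Transcriptome Analysis Console 4.0.2.15, RMA and mm10. Any batch adjustment is not given in the sources used here. RMA evens out the arrays, so a shift shared by most genes would be lost. Of the probe sets, 19572 had 1 symbol, 0 several and 2634 none in the platform annotation. The probe set with the highest mean stood for a gene.

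The genotype difference was fitted in limma 3.58.1 (R 4.3.3, genotype and batch as terms, Benjamini-Hochberg adjustment over all probe sets, threshold 0.05). Single members were also tested by exact permutation of genotype within batches, whose smallest p is 3.1e-05. Relations on either side of the gap were also centred and permuted within genotype, chosen after seeing the data. Relations used 100000 permutations (smallest p 1e-05) within genotype and batch where all 20 mice entered, and were adjusted over families of 48, 21, 18 and 21. Because Cpa3, Mcpt4 and Tpsb2 split the mice, their relations were computed on either side of the gap and not over all 20, a change from the planned single family of pairs. The methods were tested on simulated data. Replicate numbers did not pair wt with cre mice: correlations of same-numbered mice ranged from −0.32 to 0.30, and 4 of 10 were over 0.1. The labels call the mice biological replicates, and their number limits the precision. Permutations ran in Python 3.11.15 with SciPy 1.17.1.

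The members and lists were chosen with earlier results of these data known. Genes named were the 10 members, up to 3 of each related list with the smallest p for genotype, any of these lists with an unadjusted p under 0.05, and the 8 genes outside all lists most like each mean; genes named for their likeness within a list, and Kitl, were chosen after their values were seen. The alternatives left out the batch term, took each batch alone, or used a replicate block, a trended robust prior, no dim probe sets (7402 fewer), quantile normalization, centring, array weights, a macrophage covariate or fewer mice. Leaving out the 4 mice set apart by a list for another tissue, for the gap, was chosen after seeing the data.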

Additional observations from a re-analysis of the deposited data

Results flagged for a closer look

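Among 20 combinations of gene and genotype (10 mice each), 3 held a mouse that lay farther from its neighbours than a 95% limit for such gaps allows, and chance gives about 1 in 20. All 3 were eosinophil genes. Siglecf was 5.08 in wt mouse 5, and the nearest wt mouse had 4.47. Ccr3 was 4.93 in cre mouse 9, and the nearest cre mouse had 6.00. Il5ra was 4.99 in wt mouse 9, and the nearest wt mouse had 4.29. All 3 mice were of batch 1. The cause was not tested.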

How the results depend on the processing

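In limma, 0 of 7 mast cell and 0 of 3 eosinophil genes passed adjustment under each alternative run, mice left out included, with adjusted p from 0.665 to 0.99993. An unadjusted p under 0.05 came only for Il5ra in batch 2 alone (0.0461) and Ms4a2 without wt mouse 7 or wt mouse 10. Differences are log2, cre minus wt, and the cause of each turn in sign was not tested. In batch 1 alone Il5ra was −0.29. In batch 2 alone Tpsb2 was 0.024, Kit 0.35, Hdc 0.42, Siglecf 0.025 and Ccr3 0.13. With quantile normalization Kit was 0.020 and Hdc 0.000788. With array weights Cpa3 was 0.45, Mcpt4 0.12, Tpsb2 0.13, Kit 0.15, Hdc 0.10 and Ccr3 0.18. With the macrophage mean as a covariate they were 0.70, 0.33, 0.34, 0.16, 0.20 and 0.25. Without wt mice 5 and 6 they were 0.73, 0.30, 0.34, 0.24, 0.13 and 0.17. Without cre mice 7 and 9 Cpa3 was 0.33, Kit 0.017, Hdc 0.15 and Ccr3 0.23. Cma1 and Ms4a2 kept a lower mean in cre mice under every alternative that gave a value. Leaving out each mouse in turn gave −0.80 to 0.23 for Cpa3, −0.61 to −0.24 for Cma1, −0.87 to −0.07 for Mcpt4, −0.89 to −0.04 for Tpsb2, −0.16 to 0.19 for Kit, −0.62 to −0.35 for Ms4a2, −0.17 to 0.13 for Hdc, −0.19 to −0.04 for Siglecf, −0.20 to 0.18 for Ccr3 and 0.03 to 0.34 for Il5ra. With the replicate number as a block 0 members passed, and Ms4a2 kept −0.49 with an unadjusted p of 0.0638; the numbers are shared only by name, and 1 wt mouse correlated best with the cre mouse of its number. Leaving out dim probe sets removed Ms4a2, Siglecf and Il5ra. Averaging the probe sets of a gene was not run, since each member had 1. Dim signals compress differences.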
